A study of Mus musculus with 9 samples.

Results

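Transcript levels of 10 genes for TAM receptors, their ligands and scavenger receptors were read in sorted mouse type 2 conventional dendritic cells (cDC2s). The genes were Mertk, Axl, Gas6, Pros1, Msr1, Marco, Cd36, Scarb1, Cd93 and Mrc1. They were set by name, with earlier results of these data known, and their symbols each matched 1 row among the 40879 gene symbols of every library. The study compared 3 groups of 3 libraries. A20iKO cells carried the genotype A20fl/fl x CD11ccre, WT+IFNa cells were wild type with IFNa (interferon alpha) added, and WT cells were wild type with no treatment named. All groups were bone marrow cells grown for 9 days with 100 ng/ml recombinant human Flt3L, the cytokine that drives dendritic cell development, and cDC2s were then sorted by flow cytometry. IFNa was given on day 5. A20, encoded by Tnfaip3, is a ubiquitin-editing enzyme that restrains NF-kB signalling, and the CD11c-driven Cre removes floxed sequence only in cells that have come to express CD11c. The protocol field names IFNa for all 9 libraries, while the titles and the treatment entry name it for the WT+IFNa libraries only, so the absence of IFNa from A20iKO and WT cultures rests on those labels. The labels used here do not name the dose of IFNa, the age of the mice or whether each library held cells of 1 mouse. P-values weigh differences between groups against the spread between libraries.

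TAM receptors are receptor tyrosine kinases named for Tyro3, Axl and Mertk. Their ligands, the vitamin K-dependent proteins Gas6 and protein S (Pros1), bind phosphatidylserine on dying cells and bridge it to the receptor, which leads to uptake of the cell and, in dendritic cells, to feedback that dampens cytokine and interferon signalling. Scavenger receptors are a functional and not a sequence family: the class A receptors Msr1 and Marco are trimeric collagen-like receptors for modified lipoproteins and bacteria, and the class B receptors Cd36 and Scarb1 bind lipoproteins and fatty acids. Cd93 is a C-type lectin-like transmembrane protein and Mrc1 is the mannose receptor, an endocytic receptor for glycans.

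Total counts were 7187359 to 9518822 in A20iKO, 7041519 to 10246810 in WT+IFNa and 6900598 to 10552756 in WT libraries. A level is given in CPM (each count relative to the library total, scaled by TMM factors) and, since each read tags the 3' end of a transcript, does not depend on transcript length. Tnfaip3 itself held 285, 476 and 377 counts in A20iKO, 73, 84 and 74 counts in WT+IFNa and 232, 51 and 42 counts in WT libraries. Since the labels do not name which exons were floxed, these 3' tags are no check of the knockout. The cDC2 marker genes Itgax, Zbtb46, Flt3 and Sirpa were present in every group, at means of 133, 66.4, 163 and 455 CPM in A20iKO, 104, 119.8, 165 and 197 CPM in WT+IFNa, and 91.7, 117, 293 and 170 CPM in WT. The summed level of 10 cDC2 markers was 7089 to 8242 CPM in A20iKO, 9963 to 12045 CPM in WT+IFNa and 13868 to 17885 CPM in WT libraries, without overlap. Most of this sum was H2-Ab1 and Cd74, genes of antigen presentation. Their means were 3802 and 2930 CPM in A20iKO, 5382 and 4080 CPM in WT+IFNa, and 8487 and 5911 CPM in WT. Of the 10 markers, 8 were called lower and 1, Sirpa, higher in A20iKO against WT. Cd209a, a lectin of part of the cDC2s, averaged 10.97 CPM in A20iKO, 114 CPM in WT+IFNa and 331 CPM in WT.

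Markers of other cell types also differed between libraries. The summed level of 16 macrophage and monocyte markers was 3051 to 3203 CPM in A20iKO, 2037 to 2553 CPM in WT+IFNa and 1349 to 1668 CPM in WT libraries, again without overlap. Within this list the members did not move as one. Csf1r, Gpnmb and Ly6c2 rose in A20iKO against WT, while Adgre1, which encodes the macrophage surface protein F4/80, fell to 37.0 CPM in A20iKO, against 92.3 CPM in WT. In WT+IFNa against WT, 2 rose and 2 fell. Ly6c2 rose to 678 CPM in WT+IFNa, against 26.0 CPM in WT, and Fcgr1 to 74.5 CPM, against 1.92 CPM. Lyz2 fell to 129 CPM in WT+IFNa, against 363 CPM in WT, and Adgre1 to 38.4 CPM. The higher sum of WT+IFNa than of WT thus rests largely on Ly6c2. The tissue macrophage markers Vsig4 and Timd4 held summed counts of 0 and 7 in A20iKO, 2 and 13 in WT+IFNa, and 1 and 16 in WT. Stromal markers, 15 genes led by collagens, stood high in 1 library of each group. Their summed level was 4172, 731 and 428 CPM in A20iKO replicates 1, 2 and 3, then 548, 2231 and 4487 CPM in WT+IFNa, and 726, 4059 and 1424 CPM in WT. Endothelial markers, mostly Kdr, summed to 130.3 to 218 CPM in A20iKO, 174 to 208 CPM in WT+IFNa and 15.1 to 27.7 CPM in WT. In WT+IFNa against WT, Kdr was the 1 call among the 7 endothelial genes tested. No other marker of that list averaged more than 4.39 CPM (Egfl7 in WT) in these 2 groups, so the list as a whole did not rise with IFNa. Adipocyte and platelet markers stayed at or under 10.1 CPM in sum in every library. In sorted bulk samples, fewer cells of a type and less RNA per cell cannot be told apart.

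**Figure D1:**
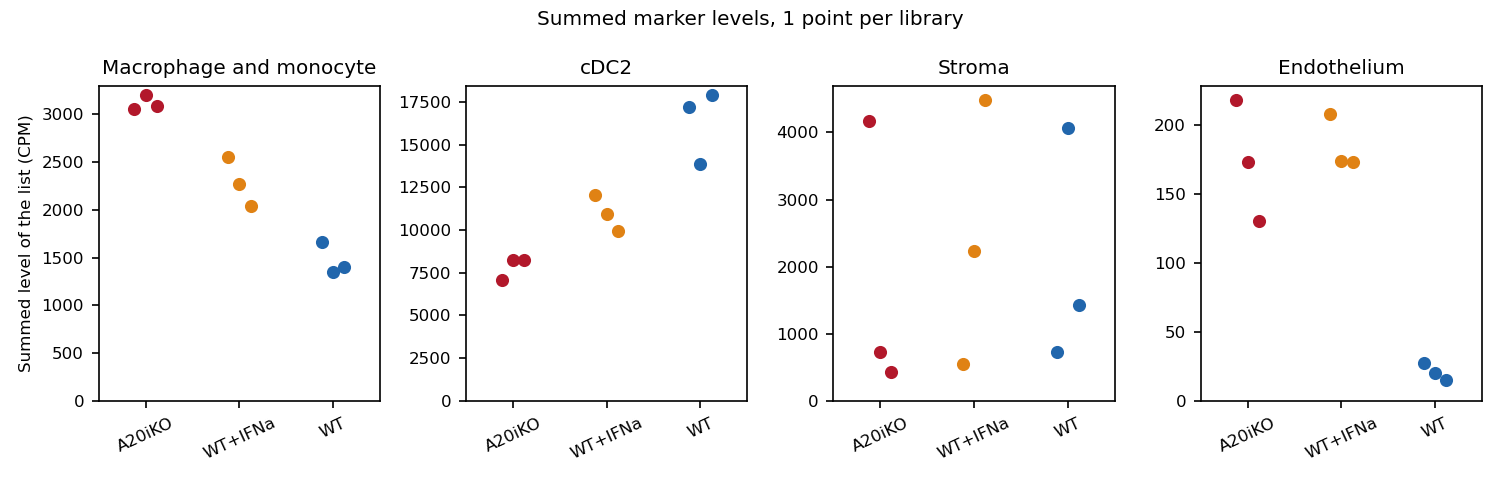
Summed level in CPM (y axis) of the macrophage and monocyte, cDC2, stromal and endothelial marker lists, 1 point per library, for A20iKO, WT+IFNa and WT (x axis). The macrophage and cDC2 sums do not overlap between groups, and the stromal sum is highest, at 4172, 4487 and 4059 CPM, in 1 library each of A20iKO, WT+IFNa and WT.

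Mertk, the TAM receptor best known for uptake of dead cells by macrophages, was highest in A20iKO and lowest in WT. Its level was 23.5, 18.2 and 24.9 CPM in A20iKO libraries (179, 161 and 237 counts), 4.46, 2.31 and 2.67 CPM in WT+IFNa libraries (41, 20 and 18 counts), and 0.587, 0.534 and 0.203 CPM in WT libraries (6, 4 and 2 counts). No library of one group reached the range of another. The mean was 22.2 ± 3.52 CPM in A20iKO, 3.15 ± 1.15 CPM in WT+IFNa and 0.441 ± 0.208 CPM in WT (SD, n = 3 each). Against WT, Mertk rose 49.1-fold in A20iKO, a log2 fold change of 5.62 (SE 0.65, 95% interval 4.22 to 7.02; edgeR quasi-likelihood test, Benjamini-Hochberg adjusted p = 8.72e-05). It also rose 6.99-fold in WT+IFNa against WT (log2 2.81, SE 0.60; edgeR adjusted p = 0.0203). A20iKO exceeded WT+IFNa 7.02-fold (log2 2.81, SE 0.55; edgeR adjusted p = 0.00849). The rise in A20iKO over WT held when each library was left out in turn. The rise in WT+IFNa missed the threshold without any 1 A20iKO library (adjusted p = 0.0554, 0.0543 and 0.0674), without WT+IFNa replicate 1 (0.0855) or without WT replicate 3 (0.0795), and the excess of A20iKO over WT+IFNa missed it without A20iKO replicate 3 (0.0592).

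Axl, the TAM receptor that interferon is known to induce in dendritic cells, followed another order, with WT+IFNa highest. It stood at 179.7, 88.1 and 88.3 CPM in A20iKO, 299, 387 and 323 CPM in WT+IFNa, and 34.5, 116 and 56.3 CPM in WT libraries. The WT+IFNa libraries lay above all others, and the A20iKO and WT ranges overlapped. The mean was 119 ± 52.8 CPM in A20iKO, 336 ± 45.5 CPM in WT+IFNa and 68.9 ± 42.2 CPM in WT (SD, n = 3 each). Axl rose 4.90-fold in WT+IFNa against WT (log2 2.29, SE 0.39, 95% interval 1.44 to 3.14; edgeR adjusted p = 0.00453), and the log2 change was 2.89 without WT replicate 2. A20iKO against WT gave a log2 change of 0.79 (95% interval -0.03 to 1.61), which missed the threshold (edgeR adjusted p = 0.245). Axl was lower in A20iKO than in WT+IFNa by 1.503 on the log2 scale (SE 0.38; edgeR adjusted p = 0.0359).

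Single libraries weighed on the Axl comparisons. The highest Axl library within A20iKO and within WT was the one with the most stromal transcripts, A20iKO replicate 1 and WT replicate 2, and in WT+IFNa it was not. Without WT replicate 2 the A20iKO difference from WT was 1.37 on the log2 scale with an adjusted p of 0.0127, and without A20iKO replicate 1 the difference was 0.36. With the 3 libraries richest in stromal transcripts left out together, it was 0.96 with an adjusted p of 0.0272. With the stromal sum as a covariate it was 1.01 with an adjusted p of 0.00675, and with no filter on low counts 0.78 with an adjusted p of 0.00207, so that the A20iKO difference from WT passed under these 4 alternatives. The difference between A20iKO and WT+IFNa missed the threshold without A20iKO replicate 2 or 3 (adjusted p = 0.153 and 0.154) or without any 1 WT+IFNa library (0.102, 0.151 and 0.0795).

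**Figure D2:**
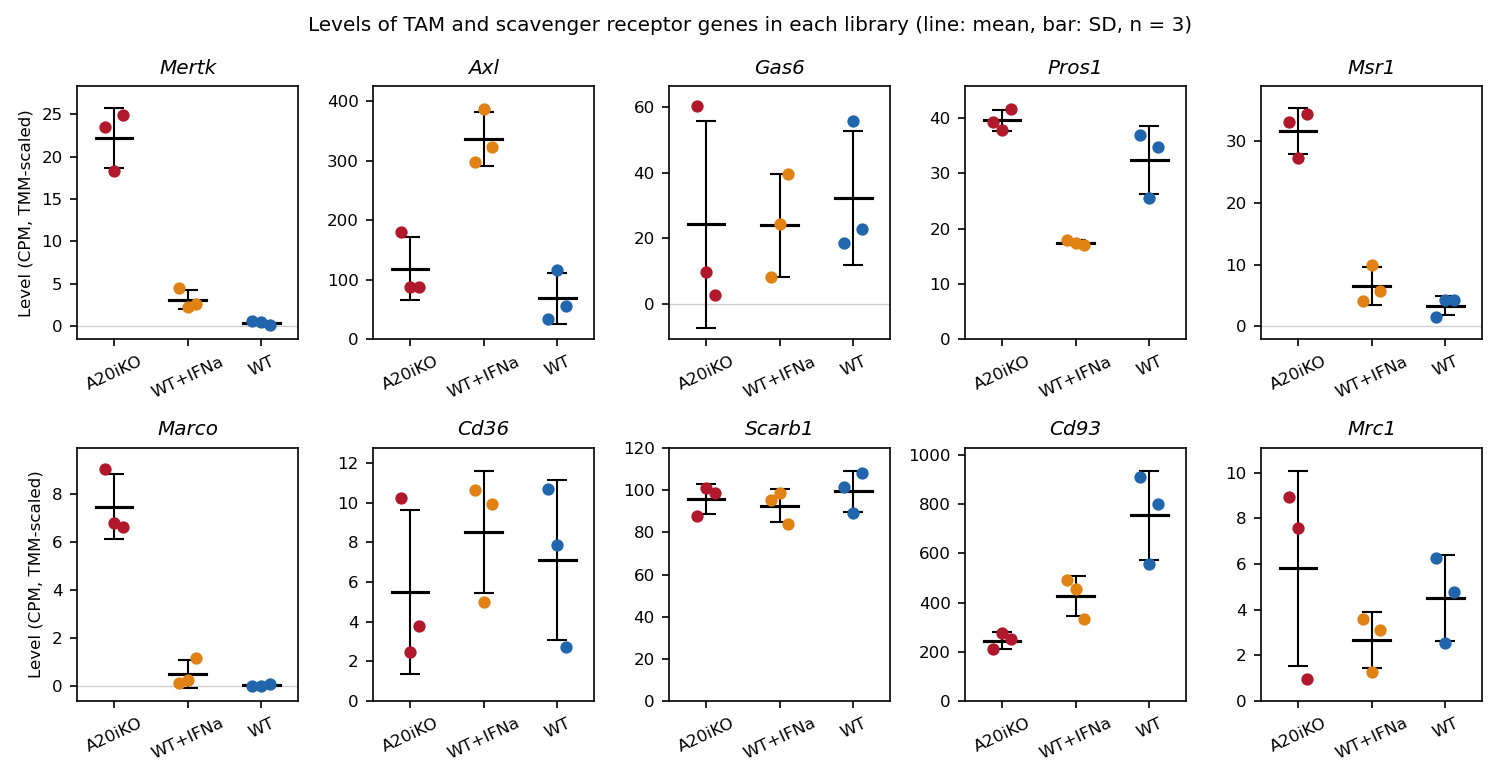
Level in CPM (y axis) of each of the 10 genes in every library of A20iKO, WT+IFNa and WT (x axis); points are libraries, lines are means and bars are SD (n = 3). Mertk, Msr1 and Marco are highest in A20iKO, Axl is highest in WT+IFNa, and Cd93 is highest in WT.

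The balance between the receptors differed accordingly. Axl had 7.65, 4.83 and 3.54 counts for each Mertk count in A20iKO libraries, 67.0, 167 and 121 in WT+IFNa libraries and 58.7, 217 and 278 in WT libraries. The A20iKO ratios lay below all ratios of WT+IFNa and WT, while the WT+IFNa and WT ratios overlapped. The WT ratios rest on only 6, 4 and 2 Mertk counts and are imprecise. Their overlap with WT+IFNa therefore does not show an equal balance. Tyro3, the third TAM receptor, chosen here after its values were seen, was low throughout, at 2.62 ± 2.29 CPM in A20iKO, 0.772 ± 0.493 CPM in WT+IFNa and 0.935 ± 1.28 CPM in WT (SD, n = 3 each). Its libraries overlapped between the groups in all 3 comparisons.

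The ligands were present in every group but did not follow the receptors. Gas6, the ligand that binds all TAM receptors, held 60.3, 9.74 and 2.84 CPM in A20iKO, 8.16, 24.3 and 39.6 CPM in WT+IFNa, and 18.5, 55.8 and 22.9 CPM in WT libraries. The A20iKO libraries alone spanned the whole range, and the groups overlapped. Gas6 differed by a log2 change of -0.42 in A20iKO against WT (95% interval -2.24 to 1.41; edgeR adjusted p = 0.857), by -0.43 in WT+IFNa against WT (adjusted p = 0.926) and by 0.02 in A20iKO against WT+IFNa (adjusted p = 0.998). Within all 3 groups the libraries ranked by Gas6 in the same order as by the summed stromal markers, which was so for 445 of the genes tested (3.36%). Gas6 was the only member with that match in all 3 groups. None of the 13 stromal markers that could be tested passed the threshold in any comparison by edgeR. They varied widely within groups, with Col1a1 at 2715, 468 and 285 CPM in A20iKO libraries, so this does not show equal stromal content. The direction of Gas6 turned when single libraries were left out, so these data give it no direction.

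Pros1, which encodes protein S, a ligand of Mertk and Tyro3, varied little within A20iKO and WT+IFNa and more within WT. It held 39.2, 37.9 and 41.6 CPM in A20iKO, 17.9, 17.5 and 17.1 CPM in WT+IFNa, and 37.0, 25.5 and 34.8 CPM in WT libraries. The WT+IFNa libraries were the lowest and those of A20iKO the highest, with no overlap between any pair of groups. The lowest A20iKO and the highest WT library were close, at 37.9 and 37.0 CPM. In A20iKO against WT, 28% of all genes tested did not overlap. Pros1 was higher in A20iKO than in WT+IFNa by 1.18 on the log2 scale (SE 0.25, 95% interval 0.63 to 1.73; edgeR adjusted p = 0.0148). It did not pass the test in A20iKO against WT (log2 0.29, SE 0.25; adjusted p = 0.590) or in WT+IFNa against WT (log2 -0.89, SE 0.25; adjusted p = 0.0935). The A20iKO difference from WT+IFNa missed the threshold without A20iKO replicate 2 or 3 (0.0583 and 0.0665) or without any 1 WT+IFNa library (0.0517, 0.0625 and 0.0534), while the log2 change stayed between 1.14 and 1.23 in these. In WT, the library with the lowest Pros1 was replicate 2, which had the most stromal transcripts.

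**Figure D3:**
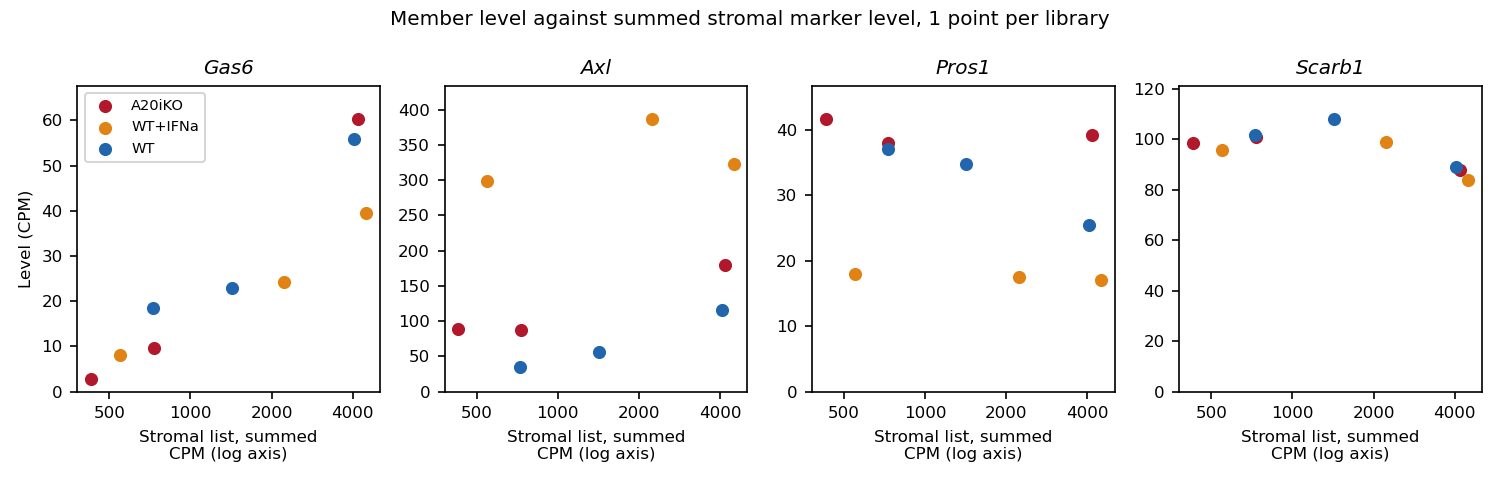
Level in CPM of Gas6, Axl, Pros1 and Scarb1 (linear y axes from 0) against the summed level of the 15 stromal markers in CPM (log x axis), 1 point per library, coloured by A20iKO, WT+IFNa and WT. Gas6 is highest in the library richest in stromal transcripts within each group, while the Pros1 levels of WT+IFNa lie between 17.1 and 17.9 CPM whatever the stromal sum.

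Both class A scavenger receptors were highest in A20iKO. Msr1, the macrophage scavenger receptor for modified low-density lipoprotein, held 33.1, 27.3 and 34.4 CPM in A20iKO, 4.02, 9.95 and 5.64 CPM in WT+IFNa, and 1.57, 4.27 and 4.26 CPM in WT libraries. Every A20iKO library lay above every other library, and WT+IFNa and WT overlapped. Msr1 rose by 3.23 on the log2 scale in A20iKO against WT (SE 0.51, 95% interval 2.13 to 4.34; edgeR adjusted p = 0.00107). It was 2.27 higher in A20iKO than in WT+IFNa (SE 0.49; edgeR adjusted p = 0.0146). The WT+IFNa difference from WT was 0.96 (95% interval -0.09 to 2.01) and missed the threshold (edgeR adjusted p = 0.449). The rise over WT held with each library left out, while the excess over WT+IFNa missed the threshold without A20iKO replicate 1 or 3 (0.0504 and 0.0648) or WT+IFNa replicate 1 or 3 (0.0720 and 0.0569).

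Marco, a class A receptor that binds bacteria and particles, was close to its detection limit outside A20iKO. It held 69, 60 and 63 counts in A20iKO, 1, 2 and 8 counts in WT+IFNa, and 0, 0 and 1 counts in WT libraries. Counts of 0 allow levels of up to 0.294 CPM in WT replicate 1 and 0.401 CPM in WT replicate 2. The A20iKO libraries therefore stood apart, at a mean of 7.49 ± 1.35 CPM, against 0.509 ± 0.590 CPM in WT+IFNa and 0.0338 ± 0.0585 CPM in WT (SD, n = 3 each). The ratio of summed counts, scaled for depth, was 204 in A20iKO over WT (95% exact interval 36.2 to 8095, counting error only), and edgeR called the rise with an adjusted p of 0.00932. This call missed the threshold with the 3 libraries richest in stromal transcripts left out (adjusted p = 0.0688), where the fitted log2 change was 6.73, against 7.23 with all libraries, and it passed with the stromal covariate (log2 7.51, adjusted p = 0.00418). Without WT replicate 3 no count of Marco remained in WT. The ratio was 16.5 in A20iKO over WT+IFNa (interval 9.03 to 33.7; edgeR adjusted p = 0.121) and 12.3 in WT+IFNa over WT (interval 1.79 to 531; edgeR adjusted p = 0.346), and neither passed. The difference between A20iKO and WT+IFNa did pass with DESeq2 (adjusted p = 0.0128) and with only these 2 groups in the edgeR fit (adjusted p = 0.0415).

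Mertk, Msr1 and Marco were highest in the same group in which the macrophage and monocyte marker sum was highest, and the part of such cells in these 3 results was not tested. Of the 14 tested markers of that list, 9 were called higher and 1 was called lower in A20iKO against WT, with a median log2 change of 1.99. Csf1r averaged 593 CPM in A20iKO, against 146 CPM in WT, and Gpnmb 231 CPM in A20iKO, against 19.4 CPM in WT. The 1 marker called lower was Adgre1, and Vsig4 and Timd4 were at or near 0 in all groups. Cd163 and Ccr2, chosen after their values were seen, had no call but were also lower in A20iKO than in WT, without overlap. Cd163 averaged 0.570 CPM in A20iKO (14 counts), against 9.18 CPM in WT (268 counts). Ccr2 averaged 566 CPM in A20iKO, against 772 CPM in WT. Rises in A20iKO against WT were not particular to this list. Of 7 plasmacytoid genes tested, 5 were called higher, as Ly6d (109 CPM, against 5.60 CPM), and 1 lower, Siglech. Of 10 neutrophil genes, 3 were called higher, as Prtn3 (174 CPM, against 0.593 CPM), and 2 lower, S100a8 and S100a9. The part of such cells was not tested either.

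The class B receptors gave no call. Scarb1, the receptor for high-density lipoprotein, held 88.0, 101 and 98.6 CPM in A20iKO, 95.6, 98.8 and 83.8 CPM in WT+IFNa, and 102, 89.1 and 108 CPM in WT libraries. The groups overlapped throughout. Its intervals were the narrowest of the 10 genes: the log2 change was -0.06 in A20iKO against WT (95% interval -0.41 to 0.30), -0.10 in WT+IFNa against WT (-0.46 to 0.25) and 0.05 in A20iKO against WT+IFNa (-0.31 to 0.41), with edgeR adjusted p of 0.906, 0.900 and 0.960. Cd36, the fatty acid and thrombospondin receptor, held 10.2, 2.49 and 3.79 CPM in A20iKO, 10.7, 4.97 and 9.94 CPM in WT+IFNa, and 10.7, 7.88 and 2.74 CPM in WT libraries. These groups also overlapped, and the interval was wide, from -1.90 to 1.16 on the log2 scale in A20iKO against WT (edgeR adjusted p = 0.846). Changes of Cd36 up to the ends of that interval are not excluded here.

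Cd93, known from endothelium and myeloid cells and from uptake of dying cells in mice, was the most abundant of the 10 genes in every group and the one member that fell in both A20iKO and WT+IFNa. It held 209.5, 275 and 251 CPM in A20iKO, 490.0, 456 and 332 CPM in WT+IFNa, and 909.9, 556 and 799.8 CPM in WT libraries. The groups did not overlap and ran from A20iKO as the lowest through WT+IFNa to WT as the highest. Cd93 was 245 ± 33.0 CPM in A20iKO, 426 ± 82.9 CPM in WT+IFNa and 755 ± 181 CPM in WT (SD, n = 3 each). Its log2 change was -1.62 in A20iKO against WT (SE 0.20, 95% interval -2.06 to -1.18; edgeR adjusted p = 0.000185), -0.83 in WT+IFNa against WT (SE 0.20; adjusted p = 0.0426) and -0.80 in A20iKO against WT+IFNa (SE 0.20; adjusted p = 0.0343). The fall in A20iKO against WT held with each library left out. The WT+IFNa call was lost without A20iKO replicate 2 or 3 (adjusted p = 0.0640 and 0.0705), WT+IFNa replicate 2 or 3 (0.116 and 0.163) or WT replicate 1 or 3 (0.141 and 0.151). The A20iKO difference from WT+IFNa was lost without any 1 A20iKO library (0.109, 0.0698 and 0.109), WT+IFNa replicate 1 or 2 (0.159 and 0.130) or WT replicate 3 (0.0520). Kdr, from the endothelial list, was higher where Cd93 was lower, at 135 CPM in A20iKO and 179 CPM in WT+IFNa, against 11.3 CPM in WT. Kdr was the only gene of that list called in WT+IFNa against WT, so in that comparison it does not stand for the list. In A20iKO against WT, 2 of the 7 endothelial genes tested were called higher and 0 lower, where 5.77% of all genes tested were higher. The median log2 change of these 7 genes was 2.32. The second call was Egfl7, at 22.0 CPM in A20iKO, against 4.39 CPM in WT. The part of endothelial cells in the level of Cd93 was not tested. The summed cDC2 markers, mostly H2-Ab1 and Cd74, ran in the same order of groups as Cd93, with WT highest. Their part in this result was not tested.

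Mrc1, the mannose receptor, was low and variable. It held 8.92, 7.59 and 0.946 CPM in A20iKO, 3.59, 1.27 and 3.11 CPM in WT+IFNa, and 6.27, 2.54 and 4.76 CPM in WT libraries. A20iKO replicate 3 lay below every other library, and the groups overlapped. No comparison passed the test, with log2 changes of 0.36 in A20iKO against WT (95% interval -1.57 to 2.29; edgeR adjusted p = 0.886), -0.77 in WT+IFNa against WT (adjusted p = 0.842) and 1.125 in A20iKO against WT+IFNa (adjusted p = 0.661).

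**Figure D4:**
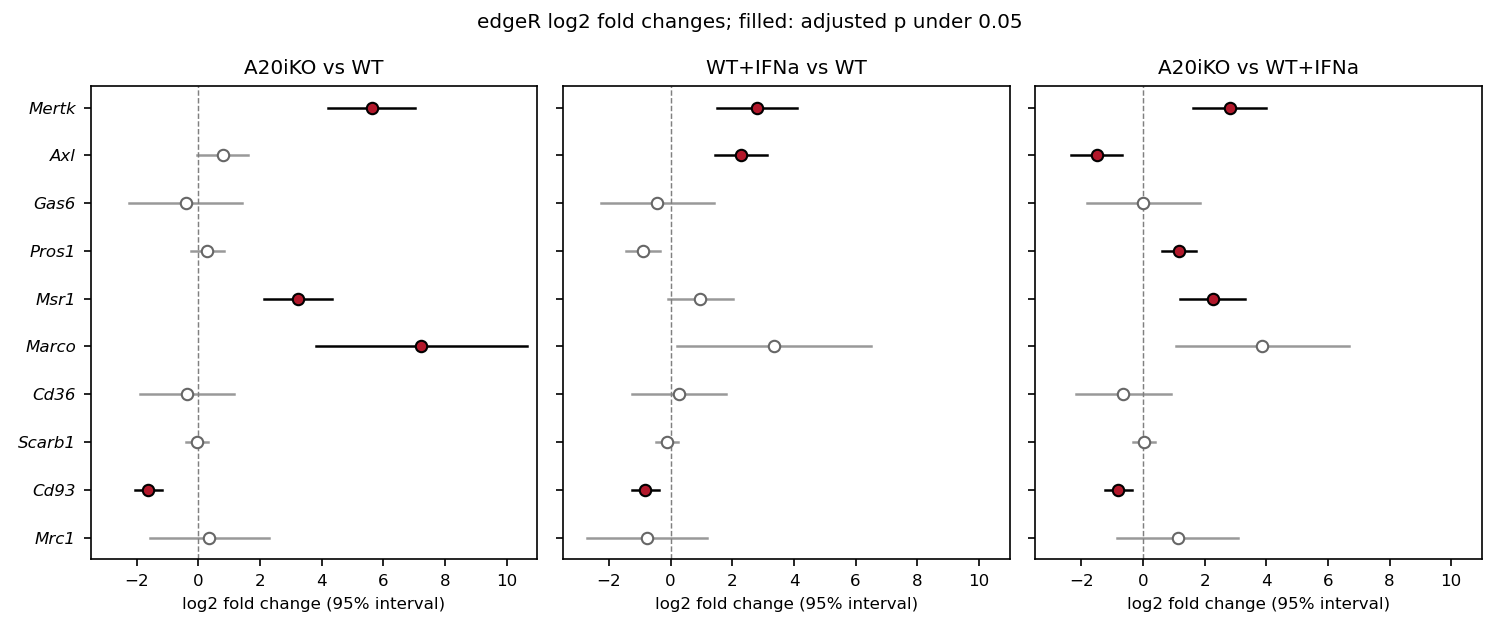
edgeR log2 fold changes (x axis) with 95% intervals of the 10 genes (rows) for A20iKO vs WT, WT+IFNa vs WT and A20iKO vs WT+IFNa; filled points had an adjusted p under 0.05. In A20iKO against WT, Mertk, Msr1 and Marco lie to the right of 0 and Cd93 to the left, and Marco's fitted value rests on 1 count in WT.

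All 10 genes passed the filter on low counts and were among the 13251 genes tested. Mertk and Marco did so without reaching its level of 1.13 CPM in any WT library, so they passed through the groups in which they were high, and the counts that follow are a description. In A20iKO against WT, 3 of the 10 genes rose (Mertk, Msr1 and Marco), 1 fell (Cd93) and 6 did not pass the test, where 10.7% of all genes tested passed, 5.77% higher and 4.91% lower. Their median log2 change was 0.32, set by Pros1 and Mrc1, beside -0.01 for all genes. The libraries of these groups did not overlap for 5 of the 10 genes (4 higher and 1 lower), as for 28% of all genes (15.4% higher and 12.6% lower). In WT+IFNa against WT, 2 rose (Mertk and Axl), 1 fell (Cd93) and 7 did not pass, where 3.1% of all genes passed, 2.4% higher and 0.702% lower. The median of the 10 was 0.08, set by Cd36 and Scarb1, and 5 of them did not overlap (3 higher and 2 lower), as for 18.2% of all genes (9.77% higher and 8.45% lower).

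A20iKO was also set directly against WT+IFNa, which tests whether the effects of A20iKO and IFNa differ. These comparisons share libraries: A20iKO and WT+IFNa were each set against the same WT libraries. Here 3 genes were higher in A20iKO (Mertk, Pros1 and Msr1), 2 were lower (Axl and Cd93) and 5 did not pass, where 5.46% of all genes passed, 2.05% higher and 3.41% lower. The median was 0.59, set by Mrc1 and Scarb1, beside 0.02 for all genes, and 6 of the 10 did not overlap (4 higher and 2 lower), as for 24.6% of all genes (12.3% each way). Axl and Mertk thus lay on opposite sides of 0 in this comparison, with intervals of -2.33 to -0.68 for Axl and 1.62 to 4.00 for Mertk on the log2 scale.

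**Figure D5:**
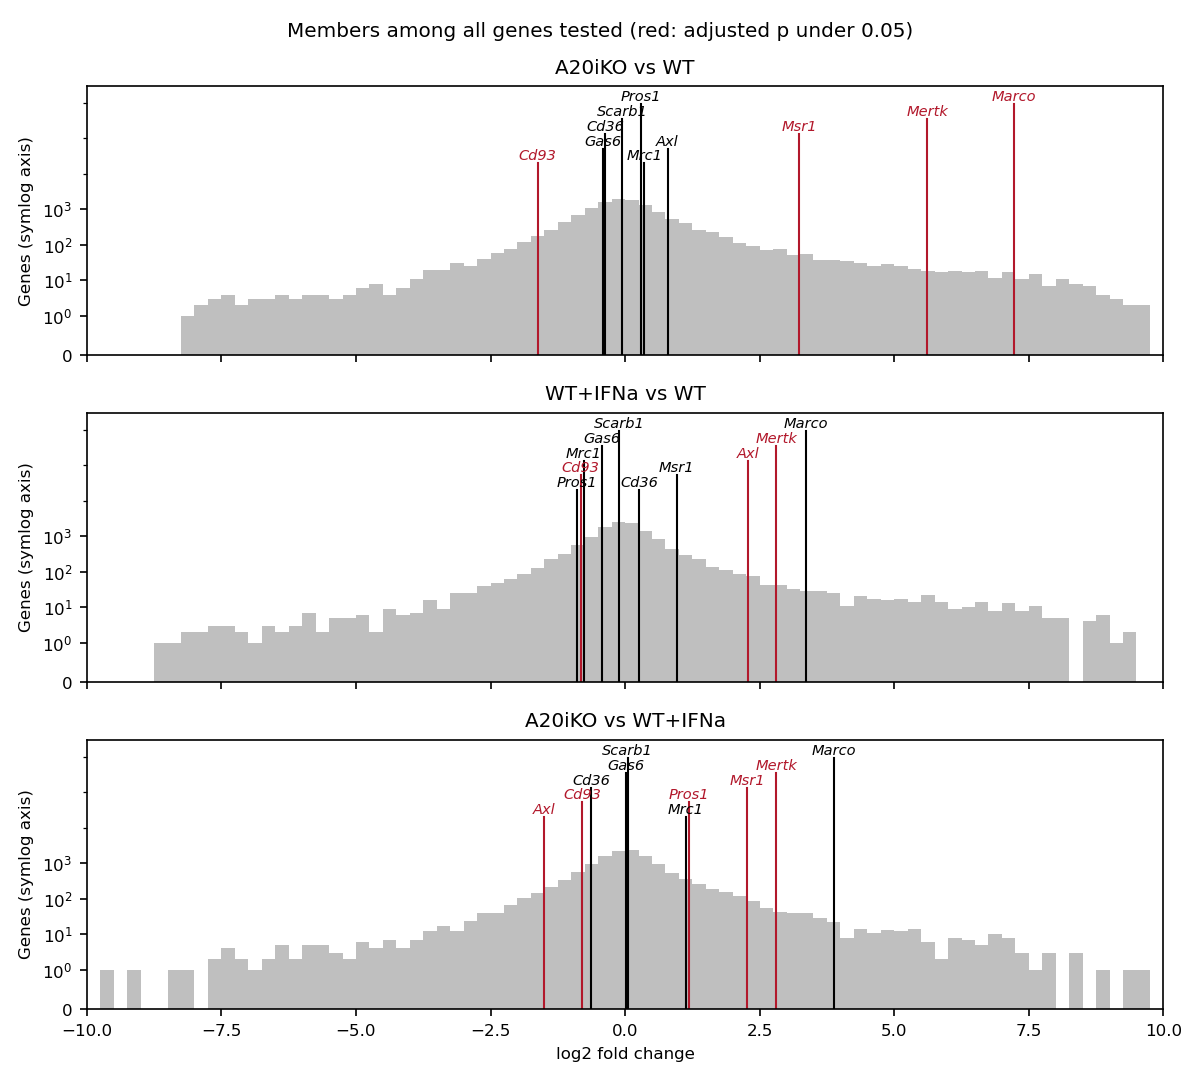
Number of genes (y axis, symmetric log scale) at each edgeR log2 fold change (x axis) among all 13251 genes tested, in A20iKO vs WT, WT+IFNa vs WT and A20iKO vs WT+IFNa; vertical lines mark the 10 genes, red where the adjusted p was under 0.05, and their heights carry no value. Mertk, Msr1 and Marco lie in the right tail of A20iKO vs WT, and the 6 genes that did not pass lie between -0.42 (Gas6) and 0.79 (Axl).

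The order of levels among the 10 genes differed between groups. By mean CPM, the first places went to Cd93, Axl and Scarb1 in A20iKO and in WT+IFNa, and to Cd93, Scarb1 and Axl in WT. The ranges of Axl and Scarb1 overlapped in A20iKO and in WT, so their order there is not beyond the spread. Msr1 was number 5 of the 10 in A20iKO, number 7 in WT+IFNa and number 8 in WT, and Mertk and Marco filled the last places in WT. Cd93 held 41.6% ± 8.72 of the counts of the 10 genes in A20iKO, 46.2% ± 5.99 in WT+IFNa and 74.5% ± 8.54 in WT (SD, n = 3 each). Axl held 19.5% ± 6.65 in A20iKO, 36.7% ± 4.10 in WT+IFNa and 7.34% ± 5.47 in WT.

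Other genes of the same pathways moved in both directions. Of 26 tested genes of apoptotic cell uptake, 5 rose and 4 fell in A20iKO against WT, with a median log2 change of 0.15. The complement component genes C1qb and C1qa, whose products coat dying cells, averaged 69.4 and 36.9 CPM in A20iKO, against 7.49 and 3.50 CPM in WT, with log2 changes of 3.196 and 3.42 (edgeR adjusted p = 0.00121 and 0.00773). Anxa1, which encodes annexin A1, fell to 40.3 ± 4.58 CPM in A20iKO, against 161 ± 18.4 CPM in WT (SD, n = 3 each; log2 -2.00, edgeR adjusted p = 2.44e-05). P2ry6, a nucleotide receptor tied to phagocytosis, fell to 33.1 CPM in A20iKO, against 75.7 CPM in WT. For WT+IFNa against WT, the list had 1 call, a rise of Cd300lf, a phosphatidylserine-binding receptor, at 87.7 ± 0.970 CPM in WT+IFNa, against 32.9 ± 4.66 CPM in WT (log2 1.41, edgeR adjusted p = 0.00272). In A20iKO against WT+IFNa, 3 fell (Anxa1, Elmo2 and Cd300a) and 0 rose.

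Among 18 tested relatives of the scavenger receptors, 4 rose and 0 fell in A20iKO against WT, with a median log2 change of 0.60. Cxcl16, a transmembrane chemokine that also binds oxidised lipoprotein, was at 144 ± 15.5 CPM in A20iKO, against 35.9 ± 12.1 CPM in WT (log2 2.00, edgeR adjusted p = 0.000139). Cd14, the co-receptor for lipopolysaccharide, was at 71.5 CPM in A20iKO, against 14.5 CPM in WT, and Ly75, a mannose receptor relative known as DEC-205, was at 27.98 CPM in A20iKO, against 0.445 CPM in WT. Cd5l, outside the naming rule and chosen after its values were seen, was the fourth, and the 1 gene of this list that rose in WT+IFNa against WT. Against WT+IFNa, Cd14 and Cxcl16 were higher in A20iKO and 0 genes of the list were lower. Cd163, a member of this list without a call, averaged 0.570 CPM in A20iKO, against 9.18 CPM in WT, without overlap. Cd14, Cd163, C1qa and C1qb are also in the macrophage and monocyte list.

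Of 15 tested enzymes and feedback genes tied to TAM receptors, 3 rose and 1 fell in A20iKO against WT, with a median log2 change of -0.01. Socs3, a feedback inhibitor of cytokine signalling, was at 93.4 ± 9.48 CPM in A20iKO, against 26.2 ± 5.22 CPM in WT (log2 1.83, edgeR adjusted p = 0.000327). Adam17, a protease that sheds Mertk and Axl from the cell surface, was at 162 ± 19.6 CPM in A20iKO, against 92.9 ± 8.54 CPM in WT (log2 0.80, edgeR adjusted p = 0.0194). Vkorc1, which recycles the vitamin K needed to make active Gas6 and protein S, fell to 23.3 CPM in A20iKO, against 45.0 CPM in WT.

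Of 15 tested nuclear receptors, macrophage factors and lipid-handling targets, 4 rose and 3 fell in A20iKO against WT, with a median log2 change of 0.51. Lpl, which encodes lipoprotein lipase, was at 204 ± 34.5 CPM in A20iKO and 67.9 ± 7.84 CPM in WT+IFNa, against 25.8 ± 3.28 CPM in WT. Apoe, an apolipoprotein, was at 208 CPM in A20iKO and 199 CPM in WT+IFNa, against 44.7 CPM in WT. Both passed the test in each group against WT. Nr4a1, an orphan nuclear receptor, fell to 33.0 ± 4.89 CPM in A20iKO, against 198 ± 124 CPM in WT (SD, n = 3 each; log2 -2.59, edgeR adjusted p = 0.000294).

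Genes with the closest profile were found for the called members that reached 10 CPM in a group mean, which left out Marco, among 8806 genes by the root-mean-square (RMS) difference of centred log2 CPM over the 9 libraries. Mertk was closest to Ccl22, a chemokine gene of activated dendritic cells, with an RMS of 0.34. Ccl22 averaged 217 CPM in A20iKO, 38.8 CPM in WT+IFNa and 5.72 CPM in WT. Gem and Ffar2 followed with an RMS of 0.41 and 0.44. Axl was closest to Znfx1, an interferon-induced helicase gene, with an RMS of 0.38 and means of 112 CPM in A20iKO, 257 CPM in WT+IFNa and 70.2 CPM in WT, followed by Mx2 with an RMS of 0.50. Msr1 was closest to Cdh1, Fscn1 and Igfbp4, with an RMS of 0.43 to 0.49. The closest genes to Cd93 were Raph1, Ctnna1 and Dusp3, with an RMS of 0.14 to 0.18, and those to Pros1 included Kcnq1ot1 and the mitochondrial CYTB, with an RMS of 0.17 and 0.19. Kcnq1ot1 is antisense to another gene, and with no strand setting named for the counting, its reads cannot be assigned to it with certainty.

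Promoter sequences were read for 7 of the 10 genes, as 300-base windows from 250 bases before to 50 bases after the start (RefSeq, GRCm38.p6, which is not the GRCm39 build of the counts). Those of Mertk, Marco and Axl are printed because Mertk and Marco were highest in A20iKO and Axl in WT+IFNa. Capitals mark matches to a loose NF-kB motif (GGG, any 5 bases, CC) on either strand, where overlapping matches run together.
Mertk (chr2:128698665-128698964, plus strand): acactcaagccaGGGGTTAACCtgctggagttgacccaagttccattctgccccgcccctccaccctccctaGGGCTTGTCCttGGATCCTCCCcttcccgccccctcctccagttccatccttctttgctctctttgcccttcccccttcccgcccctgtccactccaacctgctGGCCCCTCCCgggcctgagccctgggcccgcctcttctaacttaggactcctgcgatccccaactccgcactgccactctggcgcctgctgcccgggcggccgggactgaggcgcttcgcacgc
Marco (chr1:120504975-120505274, minus strand): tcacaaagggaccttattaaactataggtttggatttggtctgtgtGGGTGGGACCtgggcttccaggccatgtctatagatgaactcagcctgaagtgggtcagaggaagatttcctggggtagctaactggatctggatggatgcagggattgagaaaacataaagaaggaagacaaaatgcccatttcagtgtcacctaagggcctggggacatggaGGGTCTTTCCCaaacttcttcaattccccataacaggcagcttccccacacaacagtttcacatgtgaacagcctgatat
Axl (chr7:25788684-25788983, minus strand): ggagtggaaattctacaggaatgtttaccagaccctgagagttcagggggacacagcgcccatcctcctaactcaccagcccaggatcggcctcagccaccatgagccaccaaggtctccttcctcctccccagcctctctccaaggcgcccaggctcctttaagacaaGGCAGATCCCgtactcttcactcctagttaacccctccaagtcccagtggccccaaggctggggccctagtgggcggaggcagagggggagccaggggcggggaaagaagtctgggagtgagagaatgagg
The motif was found in 4 places in the Mertk window, 3 in the Marco window with 2 of them overlapping, and 1 in the Axl window. It was in all 7 windows, and in 50.8% of all 32851 promoters of that length. The interferon response motif (GAAA, any 2 bases, GAAA) was in 0 of the 7, Axl included, and in 3.44% of all promoters, and the AP-1 motif TGANTCA was in 0 of the 7 and in 7.81% of all. The PU.1 core GAGGAA was in 3 of the 7 (Marco, Mrc1 and Axl) and in 28.3% of all. A match is a run of letters in this window and does not show a bound site, and no match says only that these letters are not in the window.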

How the data were processed

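Libraries were prepared from total RNA with a 3' tag kit, per the labels' protocols. The authors deposited raw whole-number counts per gene symbol in 1 file for each of the 9 libraries. The submitters' processing notes list Bowtie2, fastp 0.23.1, STAR 2.7.10b and featureCounts 2.0.6 beside the mouse build GRCm39. What each tool did, the annotation, and how strand and multi-mapping reads were handled: not given in the sources used here. No batch is named.

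Groups and replicate numbers came from the titles. A filter (filterByExpr; count at least 10, total at least 15) kept 13251 genes with 99.83% of all counts, from totals of 6900598 to 10552756 per library. Levels are CPM scaled by TMM factors. One quasi-likelihood model without covariates (edgeR 4.0.16, R 4.3.3) held all 9 libraries and left 6 residual degrees of freedom. P-values were adjusted by Benjamini-Hochberg across the genes kept, with a threshold of 0.05. The routine was tested on simulated data. Standard errors and 95% intervals of log2 fold changes come from the F statistic. Count ratios have exact 95% intervals, and a count of 0 allows up to 3 counts. Intervals and limits of counts cover counting error only, as no molecular identifiers are named. Libraries within a group differed beyond sampling noise, with a chi-square per degree of freedom of 14.4 to 64.2, and each was counted as 1 replicate.

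The 10 genes, the related and marker lists and the tests were chosen with earlier results of these data known. Named were the 10 genes, Tnfaip3, up to 4 genes per list and comparison (past the threshold, smallest p, 10 CPM or more in whichever group was higher), and the 3 genes of closest profile to each called member that reached 10 CPM, leaving out predicted genes; a few genes that this rule names are not reported here. Lists are described by counts and medians, without a set test. Alternatives were RLE and upper-quartile factors, library totals alone, omission of the abundant noncoding gene Gm26917, no filter and a stricter filter, DESeq2 1.42.0, limma-voom (limma 3.58.1), fits of 2 groups, a replicate block, a stromal covariate, omission of the 3 libraries richest in stromal transcripts, and omission of each library in turn.

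Calls of the marker lists by edgeR, higher and lower, are given for A20iKO against WT, WT+IFNa against WT and A20iKO against WT+IFNa, in this order. Of 10 cDC2 genes they were 1 and 8, 0 and 3, and 1 and 5. Of 14 macrophage and monocyte genes they were 9 and 1, 2 and 2, and 4 and 1. Of 7 endothelial genes they were 2 and 0, 1 and 0, and 1 and 0. Of 8 cDC1 genes they were 0 and 5, 0 and 2, and 0 and 4. Of 7 plasmacytoid genes they were 5 and 1, 1 and 0, and 2 and 1. Of 10 neutrophil genes they were 3 and 2, 3 and 0, and 3 and 3. None of the 1 adipocyte and 2 platelet genes tested passed. Promoters of Msr1, Cd93 and Scarb1 were not analysed here.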

Additional observations from a re-analysis of the deposited data

How the results depend on the processing

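In A20iKO against WT, the rises of Mertk (log2 change 5.27 to 5.91) and Msr1 (2.89 to 3.44) and the fall of Cd93 (-1.82 to -1.46) passed the threshold under all 21 alternatives, as did the rise of Axl in WT+IFNa against WT (1.97 to 2.92). Over all members, Tnfaip3 and alternatives, 605 values kept direction and side of the threshold, 60 lost the call, 8 gained one and 19 changed sign, none of which passed the test in either setting. The calls in A20iKO against WT+IFNa, and those of Mertk and Cd93 in WT+IFNa against WT, were lost without the single libraries named above, and the cause was not tested.

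Members higher in A20iKO against WT numbered 3, and 4 with no filter, with the stromal covariate or without WT replicate 2 (Axl added), and 3 with the 3 stroma-rich libraries left out (Axl added, Marco lost). Members higher in WT+IFNa against WT numbered 2, and 1 with limma-voom, with 2 groups in the fit, with the replicate block or with the 3 stroma-rich libraries left out, and 1 to 2 with each library left out. Members lower there numbered 1, but 2 with library totals alone and with DESeq2 (Pros1 added), 0 with 2 groups in the fit and with the replicate block, and 0 to 1 with each library left out. In A20iKO against WT+IFNa, members higher numbered 3, but 4 with DESeq2 or with 2 groups in the fit (Marco added), 0 with the stroma-rich libraries left out and 0 to 3 with each library left out. Members lower there numbered 2, but 1 with upper-quartile factors, library totals alone or DESeq2, 0 with the replicate block and 0 to 2 with each library left out.

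Over all genes in A20iKO against WT, 765 were higher and 651 lower, with 981 lower under the stromal covariate. Leaving out libraries gave 478 to 750 higher, with 480 without A20iKO replicate 2 and 478 without A20iKO replicate 3. In WT+IFNa against WT, 318 were higher and 93 lower. There 490 were higher with DESeq2 and 497 with the stromal covariate, and 184 lower with library totals alone, 164 with no filter, 210 with DESeq2, 45 with the replicate block, 229 with the stromal covariate and 43 to 106 with each library left out. Lower counts were 58, 43 and 48 without WT+IFNa replicates 1, 2 and 3, and 45 and 47 without WT replicates 1 and 3. In A20iKO against WT+IFNa, 271 were higher and 452 lower. There 430 were higher with no filter, 497 with DESeq2, 471 with 2 groups in the fit, 451 with the stromal covariate and 145 to 342 with each library left out, and 789 were lower with the stromal covariate and 227 to 546 with each library left out. Without A20iKO replicate 2 or 3 or WT+IFNa replicate 1 or 2, the higher count was 145, 147, 173 and 167, and the lower count was 276 without A20iKO replicate 2, 227 without WT+IFNa replicate 1 and 273 without WT+IFNa replicate 2. Library totals alone moved the median log2 change of all genes to -0.15 in WT+IFNa against WT and to 0.12 in A20iKO against WT+IFNa, and the share of calls that were higher to 60.9%, against 77.4% with TMM, and to 49.3%, against 37.5% with TMM.

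Values that changed sign had no call. Gas6 in A20iKO against WT+IFNa was -0.000541 with no filter, -0.81 with limma-voom, -0.41 with the replicate block, -1.37 without the stroma-rich libraries and -1.93 to 0.63 with each library left out. Mrc1 in A20iKO against WT was -0.26 with limma-voom, -0.37 without the stroma-rich libraries and -0.087 to 0.86 with each library left out. Tnfaip3 in WT+IFNa against WT was 0.041 with limma-voom and -0.64 to 0.79 with each library left out. With each library left out, A20iKO against WT ranged from -2.36 to 0.22 for Gas6, -1.17 to 0.080 for Cd36 and -0.15 to 0.00468 for Scarb1. WT+IFNa against WT ranged from -1.004 to 0.21 for Gas6 and -0.12 to 0.69 for Cd36, and A20iKO against WT+IFNa from -0.0174 to 0.11 for Scarb1. The replicate numbers did not pair the libraries: correlations of same-numbered deviations were -0.371 to 0.237, 1 of 9 pairs was above 0.1, and 0 libraries correlated best with their own number in both other groups. With the replicate block, 589 genes were higher and 486 lower in A20iKO against WT. Depth limits Marco and Mertk in WT, with 1 and 12 summed counts.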
